A study of Mus musculus with 10 samples.

Results

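The mitochondrial carrier family SLC25 was taken as every gene of the deposited count table whose symbol starts with Slc25a, which gave 47 of 24608 gene symbols. They were followed in muscle stem cells (MuSCs) sorted as YFP-positive cells from regenerating mouse skeletal muscle 3 days after injury by cardiotoxin (CTX), in 5 control and 5 Trpm7 conditional knockout (cKO) libraries of 3000 cells each. Control mice were Trpm7+/+; Pax7CreERT2/+; Rosa26YFP and cKO mice were Trpm7 flox/flox; Pax7CreERT2/+; Rosa26YFP. Both groups therefore carried the tamoxifen-inducible Cre expressed from the Pax7 locus and the YFP reporter, and the study's mice received tamoxifen (TMX) on 5 days in a row. The study's mice were C57BL6 adults of 7 to 20 weeks, with a narrower range inside it stated for CTX injection. The comparison asks how loss of TRPM7, an ion channel that conducts Mg2+, is accompanied by changes in the transcripts of carriers that move metabolites and ions into and out of mitochondria.

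SLC25 carriers are small proteins that, with few exceptions, sit in the inner mitochondrial membrane and exchange nucleotides, phosphate, carboxylates, amino acids, cofactors and metals between cytosol and matrix. They are made in the cytosol and inserted into the inner membrane by the TIM22 complex. In muscle, the ADP/ATP carriers and the phosphate carrier supply ATP synthase with its substrates and export ATP, and the aspartate-glutamate and oxoglutarate carriers form the membrane part of the malate-aspartate shuttle, which brings reducing equivalents from glycolysis into the matrix.

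The CEL-Seq2 method sequences transcripts from their 3′ end and counts each molecule once by its unique molecular identifier (UMI), so that its CPM (counts scaled to a common library size, here with TMM factors) can be compared between genes without a length term. Control libraries held 914361 to 1097709 counts and cKO libraries 205986 to 581121, so that 3 counts, taken as the floor, correspond to 2.98 to 3.47 CPM in control and to 4.97 to 16.6 CPM in cKO libraries. Trpm7 itself had 66.6 to 90.1 CPM in control and 46.4 to 101 CPM in cKO libraries and was not called (log2 fold change -0.09). The deleted part of Trpm7 is not given in the sources used here, and a tag at the 3′ end that lies outside it does not check the labels. Defining markers of MuSCs were present in all libraries, with Pax7, the transcription factor of satellite cells, at 206 CPM on average in control and 474 CPM in cKO. The 11 MuSC markers summed to 3656 to 4303 CPM in control and 2487 to 3415 CPM in cKO, with 3 of 9 tested genes higher and 3 lower. Pax7, Myf5 and Sdc4 were higher. The lower ones went from mean levels of 744 to 181 CPM (Myod1), 903 to 144 CPM (Chrna1) and 375 to 248 CPM (Itga7). All 21 tested genes of 29 leukocyte markers were higher in cKO, where the list summed to 1557 to 6787 CPM against 421 to 688 CPM in control. Hemoglobin and other erythroid markers summed to 2.98 to 181 CPM in control and 146 to 3274 CPM in cKO (3 of 3 tested higher, Klf1 at 0 in all libraries), and endothelial markers to 3.22 to 49.8 CPM and 92.0 to 491 CPM (2 of 2 higher). Fibroadipogenic markers summed to 1604 to 2388 CPM in control and 1410 to 3100 CPM in cKO (4 of 5 higher, 1 lower). The libraries of cKO replicates 4 and 5 share a number in their names whose meaning is not stated.

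Across the family, carrier transcripts were fewer in cKO libraries. In each control library the 47 members summed to 4039, 3664, 3924, 3959 and 3558 CPM (replicates 1 to 5), and in each cKO library to 2092, 1995, 1944, 2495 and 1727 CPM. All 5 cKO libraries lay below all 5 control libraries, at means of 2051 ± 282 CPM (SD, n = 5) against 3829 ± 207 CPM (SD, n = 5). As a share of all counts, the members took 0.336% to 0.372% in control and 0.152% to 0.259% in cKO libraries. In bulk libraries, fewer cells of a type and less RNA per cell cannot be told apart, and the leukocyte, erythroid and endothelial levels above moved with genotype in the same libraries. Transcripts of the mitochondrial genome took 12.0% to 16.5% of counts in control and 8.82% to 10.6% in cKO libraries, and their part in the result was not tested.

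Of the 47 members, 21 passed the filter on low counts and were tested among 7753 genes by the quasi-likelihood test of edgeR (p-values adjusted after Benjamini-Hochberg), at an adjusted p below 0.05. In cKO, 11 members fell, 1 rose and 9 were not called. Among all tested genes, 24.1% were lower and 24.6% higher, and the members stood at 52.4% lower and 4.76% higher. The fitted difference was below 0 for 18 members and above 0 for 3, with a median log2 fold change of -0.60 against -0.01 over all tested genes. Beyond a log2 fold change of 1.5, no member fell (background 3.53% of tested genes) and 1 member, Slc25a25, rose (background 8.49%). The CPM of the groups did not overlap for 8 members that were lower in cKO and for 0 that were higher, against 17.9% and 16.6% of tested genes. The 11 members that fell had log2 fold changes from -0.35 (Slc25a3) to -1.49 (Slc25a24).

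With any 1 library left out, 9 to 13 members were lower and 1 was higher. Without a control library 9 to 10 of 19 tested members were lower, and without a cKO library 12 to 13 of 24. Of all genes tested, 20.5% to 23.6% were then lower and 22.7% to 25.9% higher. The count of members called lower depended more on the scale: with libraries scaled to the MuSC markers, all genes had a median of 0.33 and 5 members were called lower (Slc25a4, Slc25a5, Slc25a17, Slc25a24 and Slc25a39), where 11.3% of all genes were lower and 36.1% higher. This marker sum itself moved with genotype, as the abundant Chrna1 (log2 fold change -2.61) and Myod1 (-2.01) fell while Pax7 (1.19) rose. It is therefore no fixed measure of MuSC RNA. Counted per 3000 sorted cells, all genes had a median of -1.15, with 19 members lower and 0 higher, where 66.6% of all genes were lower and 4.90% higher. That scale compares raw counts, so RNA per cell, capture and sequencing depth cannot be told apart in it. The cKO libraries of 3000 cells each ranged from 205986 to 581121 counts. Relative to the median of all genes, the members' median was -0.60, -0.60 and -0.54 under TMM, MuSC markers and sorted cells. A change of scale shifts all genes by nearly the same amount, so these values must lie close and are no separate support. With the leukocyte marker level as a covariate, which does not overlap between the genotypes, 3 members stayed lower (Slc25a24, Slc25a37 and Slc25a39) and Slc25a25 stayed higher, among 120 lower and 360 higher genes of the 7753 tested.

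**Figure D1:**
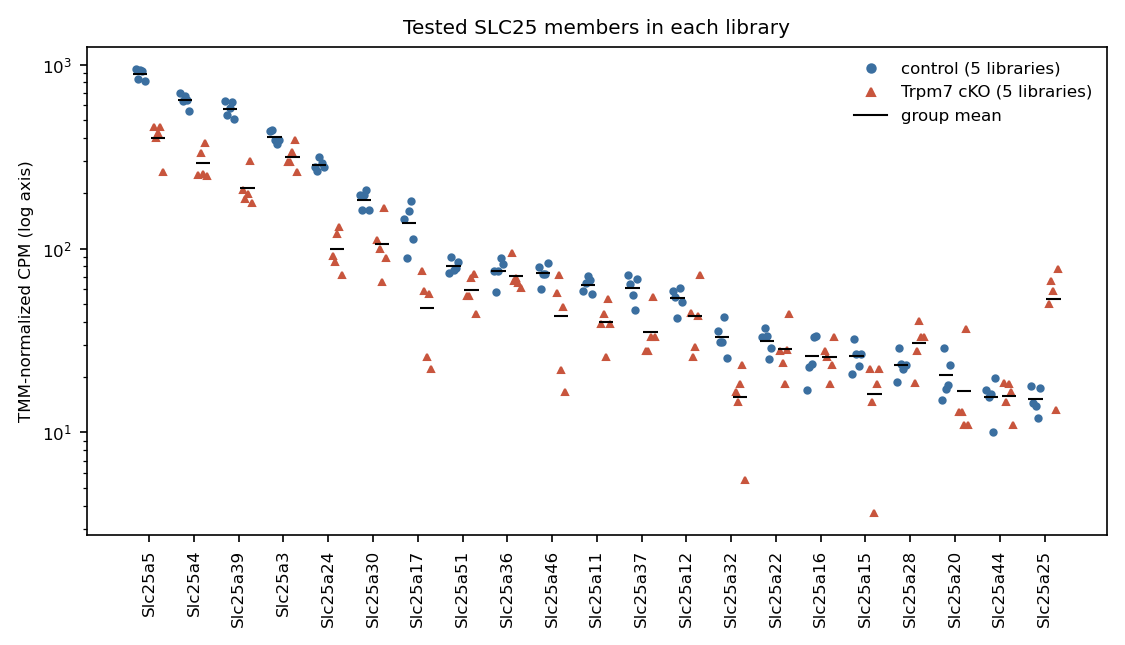
TMM-normalized CPM (log axis) of the 21 tested SLC25 members in each of the 5 control (circles) and 5 Trpm7 cKO libraries (triangles), ordered by their control mean, with bars at the group means. The 5 most abundant members lie between 285 and 892 CPM in control on average, and Slc25a25, at the right, is the only tested member called higher in cKO, a call lost per 3000 sorted cells.

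In control MuSCs a few carriers made up most of the family. The 5 most abundant members, Slc25a5, Slc25a4, Slc25a39, Slc25a3 and Slc25a24, took 73.2% ± 1.18 of the family's counts (SD, n = 5), and 64.1% ± 3.78 in cKO. In the order of control levels, Slc25a5 was separate from Slc25a4, Slc25a39 from Slc25a3, Slc25a3 from Slc25a24 and Slc25a24 from Slc25a30 in all libraries, whereas Slc25a4 and Slc25a39 overlapped. From Slc25a30 downwards every pair of neighbours overlapped, so adjacent members there are not ordered by these libraries. Slc25a3 took 10.6% ± 1.01 of the family in control and 15.4% ± 1.21 in cKO, a larger share in every cKO library than in any control library.

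The ADP/ATP carriers and the phosphate carrier were lower, by different amounts. Slc25a5 (ANT2; chrX:36795651-36798807, plus strand, GRCm38), the most abundant member and the ADP/ATP carrier of proliferating cells, had 945, 835, 941, 924 and 815 CPM in the control libraries. In the cKO libraries it had 456, 397, 424, 459 and 259 CPM. The groups were apart in every library, a fall of 2.21-fold (log2 fold change -1.14, SE 0.15, n = 5 per group, quasi-likelihood test of edgeR, Benjamini-Hochberg adjusted p = 3.71e-06). Its last 500 transcript bases are shared for 75.4% with 5 pseudogenes, Slc25a5-ps among them, so that reads could be split or lost and its level is uncertain. With the leukocyte covariate its value was -0.96 and was not called (adjusted p = 0.224 in edgeR).

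Slc25a4 (ANT1; chr8:46206797-46211284, minus strand), the ADP/ATP carrier typical of heart and skeletal muscle, has no such shared sequence. It had 704, 637, 678, 645 and 563 CPM in control libraries. In cKO libraries it had 251, 329, 256, 374 and 248 CPM. Again no cKO library reached the lowest control library, and the fall was 2.19-fold (log2 fold change -1.13, SE 0.15, n = 5 per group, edgeR adjusted p = 3.52e-06). With the leukocyte covariate the value was -1.03 and was not called (adjusted p = 0.163 in edgeR).

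Slc25a3, the phosphate carrier that also brings copper into the matrix, went from 404 ± 30.7 CPM to 315 ± 49.1 CPM (SD, n = 5), with overlapping groups (log2 fold change -0.35, SE 0.14, adjusted p = 0.0403 in edgeR). That call was lost, among others, under scaling to total counts (adjusted p = 0.172) and when any of 7 libraries was left out, among them control replicate 2 (adjusted p = 0.0946). Per count of Slc25a4 and Slc25a5 together, Slc25a3 had 0.264 ± 0.0266 counts in control and 0.459 ± 0.0463 in cKO libraries (SD, n = 5), ranging from 0.235 to 0.298 and from 0.408 to 0.511. This ratio was computed after the values were seen and is given without a test. Slc25a31, the testis ADP/ATP carrier, had at most 1 count in any library.

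The 2 measured ATP-Mg/phosphate carriers that could be tested moved in opposite directions. These carriers are regulated by Ca2+ and exchange ATP complexed with Mg2+ for phosphate, which sets the adenine nucleotide content of the matrix. Slc25a24 (SCaMC-1; chr3:109123149-109168457, plus strand) had 278, 263, 313, 291 and 279 CPM in control libraries. In cKO libraries it had 90.5, 84.7, 121, 131 and 71.7 CPM. The highest cKO library was far below the lowest control library, and Slc25a24 had the lowest log2 fold change of the tested members, -1.49 (SE 0.16, 2.81-fold lower, n = 5 per group, edgeR's quasi-likelihood test, adjusted p = 4.71e-07). It was called lower under each alternative setting run and when any library was left out.

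Slc25a25 (SCaMC-2; chr2:32414487-32451445, minus strand) was rare in control MuSCs, at 17.9, 14.5, 13.9, 12.0 and 17.4 CPM. In cKO libraries it had 49.9, 66.2, 58.5, 13.3 and 77.3 CPM. Of the cKO libraries 4 were above every control library, and replicate 4, with 8 counts, lay within the control range. The rise was 3.22-fold (log2 fold change 1.69, SE 0.34, n = 5 per group, edgeR's quasi-likelihood test, adjusted p = 3.64e-04), and 1.99 on the log2 scale without cKO replicate 4. Per 3000 sorted cells the value was 0.48 and was not called (adjusted p = 0.259). In cKO replicate 4 the leukocyte markers were highest of all libraries (6787 CPM) and the MuSC markers lowest (2487 CPM). With the leukocyte covariate the log2 fold change was 2.90 (adjusted p = 0.0279 in edgeR), and scaled to the MuSC markers it was 1.99 (adjusted p = 1.12e-05 in edgeR). That covariate does not overlap between the genotypes, and cKO replicate 4 joins its highest marker sum with the lowest Slc25a25 level in cKO. The covariate fit therefore cannot tell leukocyte level and genotype apart. Slc25a23, the remaining carrier of the group in the table, had 0 to 4 counts in control and 2 to 4 counts in cKO libraries and was not tested.

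Within a library, the balance of the pair does not depend on the scaling. The log2 ratio of Slc25a24 to Slc25a25 counts (0.5 added to each) was 3.92, 4.14, 4.44, 4.54 and 3.96 in control libraries. In cKO libraries it was 0.85, 0.35, 1.02, 3.23 and -0.10. The groups did not overlap, the mean moved from 4.20 ± 0.28 to 1.07 ± 1.28 (SD, n = 5), and the difference of -3.13 had p = 0.00794 by the exact permutation test (two-sided, the smallest p that 5 against 5 allow) and 0.0119 after Benjamini-Hochberg adjustment over the 3 pairs tested. In the cKO library of replicate 5 the Slc25a25 count (14) was above that of Slc25a24 (13).

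**Figure D2:**
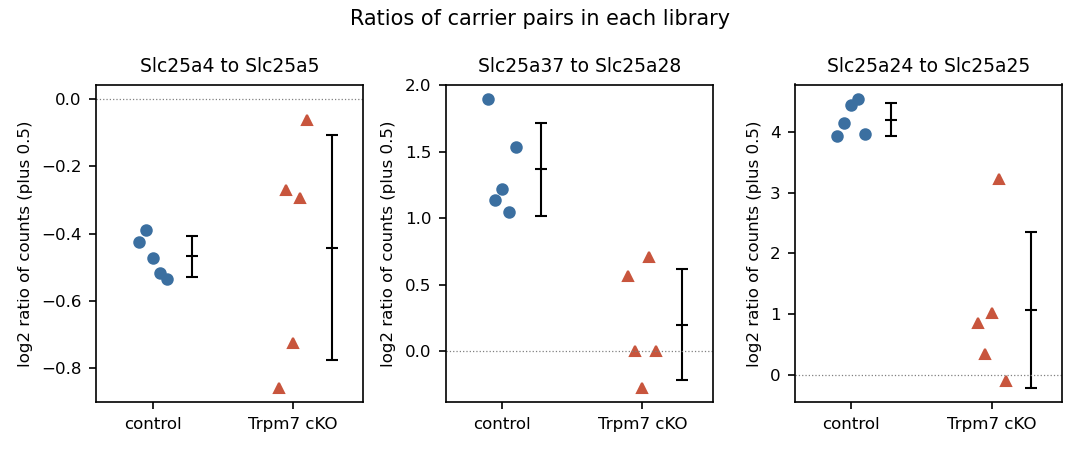
Log2 ratio of the counts of 2 related carriers in each control (circles) and Trpm7 cKO library (triangles), with mean and SD beside the points, for the 3 pairs in which both genes were tested. The control and cKO libraries overlap for Slc25a4 to Slc25a5 and are apart for Slc25a37 to Slc25a28 and for Slc25a24 to Slc25a25, where cKO replicate 4 (3.23) lies nearest to control.

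The remaining pairs of related carriers gave contrasting results. The ratio of Slc25a4 to Slc25a5 was -0.47 ± 0.06 in control and -0.44 ± 0.34 in cKO (SD, n = 5, log2), a difference of 0.03 with p = 0.889 by the exact permutation test, with more spread between cKO libraries. The ratio of Slc25a37 (mitoferrin-1) to Slc25a28 (mitoferrin-2), the importers of iron into the matrix, fell from 1.37 ± 0.35 to 0.20 ± 0.42 (SD, n = 5). That difference of -1.17 had p = 0.00794 by the exact permutation test, 0.0119 after adjustment over the 3 pairs, without overlap between the groups. Of the 13 pairs listed, the other 10 had a member below the filter.

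The promoters of carriers that moved apart or together are shown because 3′-end counts say how much RNA was present and not where it started. They were read from RefSeq for GRCm38.p6, each from 250 bases before to 50 bases after a transcription start, 5′ to 3′ on the gene's strand, and capitals mark matches to the motifs searched. Slc25a24 is chr3:109122899-109123198 (plus strand), Slc25a25 is chr2:32424017-32424316 (minus strand, 1 of its 3 listed starts), Slc25a4 is chr8:46211013-46211312 (minus strand) and Slc25a39 is chr11:102407468-102407767 (minus strand).
Slc25a24: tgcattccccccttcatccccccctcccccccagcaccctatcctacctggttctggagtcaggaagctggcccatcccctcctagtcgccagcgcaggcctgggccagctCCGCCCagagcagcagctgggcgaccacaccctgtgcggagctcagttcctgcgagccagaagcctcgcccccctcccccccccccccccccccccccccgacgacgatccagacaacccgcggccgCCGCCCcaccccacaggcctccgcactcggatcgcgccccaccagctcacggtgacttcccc
Slc25a25: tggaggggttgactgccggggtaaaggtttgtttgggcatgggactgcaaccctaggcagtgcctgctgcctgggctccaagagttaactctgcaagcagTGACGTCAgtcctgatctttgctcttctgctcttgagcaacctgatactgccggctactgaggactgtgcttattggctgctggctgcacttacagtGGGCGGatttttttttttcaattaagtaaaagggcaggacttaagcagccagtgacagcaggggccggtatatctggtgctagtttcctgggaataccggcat
Slc25a4: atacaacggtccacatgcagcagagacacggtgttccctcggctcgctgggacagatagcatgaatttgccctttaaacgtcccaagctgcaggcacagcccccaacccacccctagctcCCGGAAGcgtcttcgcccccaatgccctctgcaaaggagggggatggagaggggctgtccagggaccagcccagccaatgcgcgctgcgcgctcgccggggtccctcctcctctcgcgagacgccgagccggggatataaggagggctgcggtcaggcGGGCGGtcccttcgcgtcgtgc
Slc25a39: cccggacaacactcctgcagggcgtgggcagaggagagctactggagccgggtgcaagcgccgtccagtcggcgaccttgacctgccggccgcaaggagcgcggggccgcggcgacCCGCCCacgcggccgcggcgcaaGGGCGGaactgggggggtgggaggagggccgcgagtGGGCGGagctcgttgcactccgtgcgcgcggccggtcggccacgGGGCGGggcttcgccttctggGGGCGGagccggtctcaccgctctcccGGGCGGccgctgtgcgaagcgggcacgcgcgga
The Slc25a24 window holds 2 matches to the SP1 letters GGGCGG (searched on both strands, as were all motifs) and no other motif searched. The Slc25a25 window holds the CREB letters TGACGTCA, starting 150 bases before the start site, and 1 SP1 match. Slc25a25 has windows at 3 start sites, and TGACGTCA is in this one alone. Slc25a4 has the ETS letters CCGGAAG 130 bases before its start and 1 SP1 match, and Slc25a39 has 6 SP1 matches. These capitals do not overlap one another.

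Of the 47 members, 36 had a promoter in the RefSeq table, with 46 start sites. GGGCGG was present in 38 of the 46 windows, and in 11714 (35.7%) of 32851 promoters of all genes (windows of 1 gene can overlap). The shares of all promoters given here take in genes that were not tested, and shares among the tested genes were not counted. By member it was in 30 of the 36, Slc25a25 among them, and in 8 of the 8 called lower that had a window. Most members thus had it, whether called lower or not. CCGGAAG was in 7 windows (8.86% of all promoters), those of Slc25a3, Slc25a4, Slc25a17, Slc25a20, Slc25a25, Slc25a38 and Slc25a54. TGACGTCA was in 2 windows (1.79% of all promoters), those of Slc25a25 and Slc25a36. The E-box CACGTG was in 8 windows (7.15%), the NRF1 core GCATGCGC in 2 (2.71%), AAGGTCA of the ERR factors in 1 (4.72%) and the AP-1 letters TGACTCA in 1 (5.2%). A match is a description of these letters and does not show that a factor binds.

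Carriers of aspartate, glutamate, dicarboxylates and citrate were mostly low, and the 2 largest differences were in members below the filter. Slc25a11, the oxoglutarate carrier of the malate-aspartate shuttle and the highest of this group in control, had 58.7, 65.1, 70.8, 67.3 and 56.7 CPM in control. The cKO libraries had 38.8, 44.2, 25.6, 53.0 and 38.6 CPM. All cKO libraries were below the control libraries (log2 fold change -0.61, SE 0.19, n = 5 per group, edgeR adjusted p = 0.0126). Without the 2 smallest cKO libraries, an alternative chosen after the data were seen, its adjusted p was 0.0561. The call of Slc25a11 was also lost when scaled to the MuSC markers (-0.27, adjusted p = 0.352 in edgeR). With the leukocyte covariate it was lost as well (-0.65, adjusted p = 0.57 in edgeR). Slc25a12 (aralar), the aspartate-glutamate carrier of muscle and brain, had a log2 fold change of -0.41 (SE 0.23, adjusted p = 0.145 in edgeR), and Slc25a22, a glutamate carrier, one of -0.21 (SE 0.24, adjusted p = 0.497).

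Slc25a13 (citrin), the second aspartate-glutamate carrier, had 16, 12, 16, 17 and 16 counts in the control libraries. In cKO libraries it had 0, 0, 0, 5 and 0 counts, where the control mean of 16.2 CPM would give 2.94 to 9.78 counts per library and 34.7 in all. A library without a count allows up to 3 counts, so the 4 cKO libraries at 0 do not show that the transcript was absent. Slc25a10, the dicarboxylate carrier that exchanges malate or succinate for phosphate, had 18, 15, 17, 21 and 11 counts in control. In cKO it had 1, 3, 2, 3 and 1 counts, 10 in all where the control level of 17.1 CPM would give 36.6. For both, control and cKO libraries did not overlap in CPM. With no filter on counts, an alternative setting, Slc25a13 had a log2 fold change of -2.90 (adjusted p = 1.96e-06) and Slc25a10 one of -2.02 (adjusted p = 1.45e-04) in edgeR. With so few cKO counts these sizes depend on the prior count. Slc25a1, the citrate carrier, had 6 to 17 counts in control and 2 to 11 in cKO. Slc25a18 had at most 1 count in any library and Slc25a21 none.

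**Figure D3:**
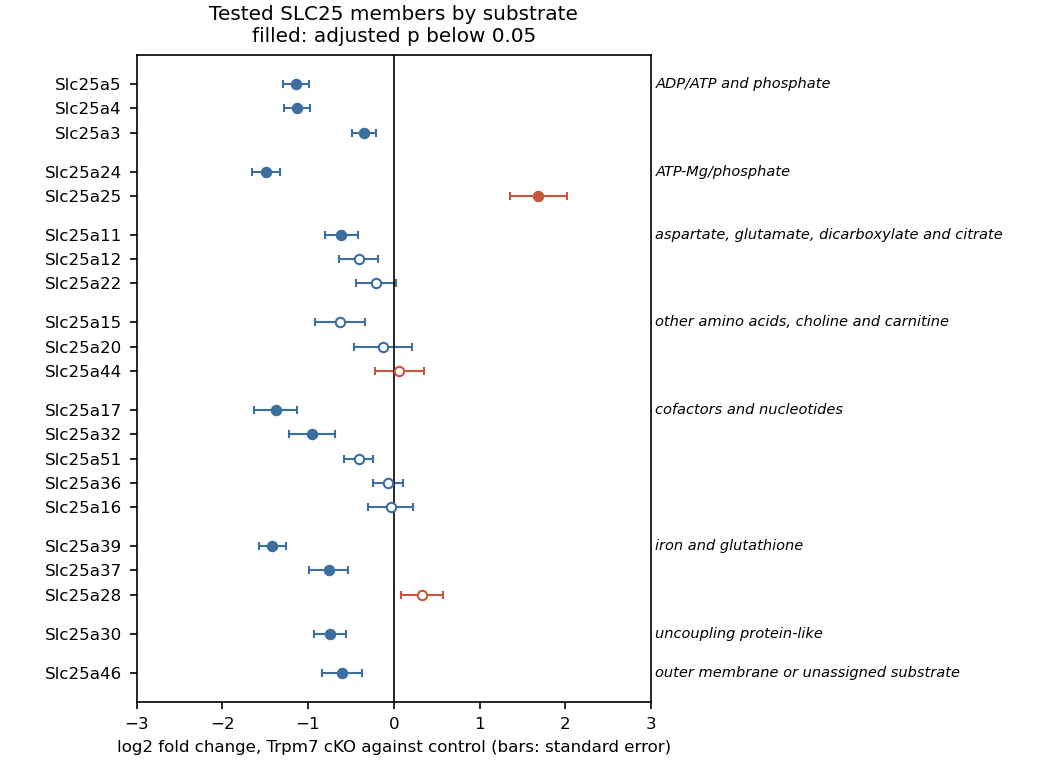
Log2 fold change (Trpm7 cKO against control, 5 libraries each) with standard error of the 21 tested SLC25 members, grouped by substrate. Filled points have an edgeR adjusted p below 0.05. The 11 filled points below 0 run from -0.35 to -1.49, and Slc25a25 at 1.69 is the filled point above 0.

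Of the carriers of other amino acids and carnitine, no tested member was called. Slc25a15, the ornithine carrier of the urea cycle and the highest of this group, had 20.9, 32.0, 26.8, 23.1 and 26.6 CPM in control. The cKO values were 22.2, 14.7, 3.65, 18.2 and 22.1 CPM. The groups overlapped (log2 fold change -0.63, SE 0.29, n = 5 per group, edgeR adjusted p = 0.0826). Slc25a20, the carnitine-acylcarnitine carrier that delivers fatty acids for oxidation, had a log2 fold change of -0.12 (SE 0.34). It had 36.5 CPM in cKO replicate 4 and at most 12.9 CPM in the other cKO libraries. Slc25a44, a carrier of branched-chain amino acids, had a log2 fold change of 0.06 (SE 0.29). The other 5 members of the group, Slc25a38 of glycine among them, had at most 5 counts in any library.

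Among the cofactor and nucleotide carriers, 2 of 5 tested members fell (24.1% of all tested genes were lower). Slc25a17 (chr15:81318911-81360812, minus strand), a peroxisomal carrier of CoA, FAD and NAD+ and so an exception to the family's place in mitochondria, had 144, 88.8, 161, 182 and 112 CPM in control. In cKO it had 75.8, 58.9, 25.6, 56.3 and 22.1 CPM. Both groups were spread, yet the highest cKO library stayed below the lowest control library, a fall of 2.60-fold (log2 fold change -1.38, SE 0.25, n = 5 per group, edgeR's quasi-likelihood test, adjusted p = 1.95e-04). With the leukocyte marker level as a covariate the value was -0.25 and the call was lost (adjusted p = 0.893 in edgeR).

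Slc25a32, which carries folate and FAD, fell from 33.1 ± 6.25 to 15.7 ± 6.49 CPM (SD, n = 5) without overlap (log2 fold change -0.95, SE 0.27, edgeR adjusted p = 0.00621). Of its last 500 bases, 27.0% are shared with 117 other genes, a repeated sequence that makes its count less certain. Slc25a51, the NAD+ carrier, was also lower in every cKO library, at 59.4 ± 11.7 against 80.5 ± 6.61 CPM (SD, n = 5), without passing the test (log2 fold change -0.41, SE 0.17, adjusted p = 0.0517 in edgeR). Slc25a36, a pyrimidine nucleotide carrier, and Slc25a16 had log2 fold changes of -0.07 (SE 0.18) and -0.04 (SE 0.26) and were not called. Slc25a33, another pyrimidine nucleotide carrier, had 1 to 14 counts in control and 0 to 3 in cKO, and Slc25a26 (S-adenosylmethionine) and Slc25a42 (CoA) had at most 6 counts in any library.

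In the iron and glutathione group, 2 of 3 tested members fell (24.1% of all tested genes were lower). Slc25a39 (chr11:102402985-102407946, minus strand), the glutathione importer of mitochondria, had 633, 535, 583, 625 and 506 CPM in control. In cKO it had 207, 186, 197, 298 and 177 CPM. Every cKO library was far below control, and replicate 4 was the highest of them. The fall was 2.67-fold (log2 fold change -1.42, SE 0.15, n = 5 per group, edgeR's quasi-likelihood test, adjusted p = 5.50e-07), and it was called under each alternative setting run and without any 1 library. Its paralog Slc25a40 had 1 to 7 counts in either group and was not tested.

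Slc25a37, the mitoferrin of erythroid cells, fell from 61.2 ± 10.3 to 35.2 ± 11.2 CPM (SD, n = 5; log2 fold change -0.76, SE 0.22, edgeR adjusted p = 0.00819). The groups overlapped through cKO replicate 4, at 54.7 CPM against 27.6 to 33.1 CPM in the other cKO libraries. The tested hemoglobin genes, a mark of erythroid RNA, were called higher in cKO, with overlapping groups for Hba-a1 and Hba-a2. Whether this is connected with the Slc25a37 level was not tested. Slc25a28, the mitoferrin of other tissues, had 23.3 ± 3.62 and 30.5 ± 8.07 CPM (SD, n = 5) and was not called (log2 fold change 0.33, SE 0.25, adjusted p = 0.290).

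A single tested member stood for each of the last groups. Slc25a30, a relative of the uncoupling proteins, had 195, 161, 196, 208 and 162 CPM in control. Its cKO values were 111, 99.4, 65.8, 166 and 88.3 CPM. It fell, with cKO replicate 4 reaching into the control range (log2 fold change -0.74, SE 0.19, n = 5 per group, edgeR adjusted p = 0.00279). The related Slc25a14 and Slc25a27 had 0 to 14 counts per library.

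Slc25a46, an outer membrane protein that takes part in mitochondrial fusion and fission, had 79.6, 59.9, 72.9, 72.3 and 83.4 CPM in control. In cKO it had 57.3, 71.8, 21.9, 48.1 and 16.6 CPM. The cKO libraries spread widely and overlapped control, and the call was near the threshold (log2 fold change -0.60, SE 0.24, n = 5 per group, edgeR adjusted p = 0.0421). It was lost when any of 7 libraries was left out, with an adjusted p of up to 0.107 (without cKO replicate 3). The 6 other members of that group had at most 10 counts in any library, and the pseudogene Slc25a5-ps had 2 counts in all.

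The 26 members that were not tested included Slc25a2 and Slc25a21 with no count in any library and 11 further members that never exceeded 3 counts. For a member without a count, 3 counts of the largest library allow a level of up to 2.98 CPM and of the smallest up to 16.6 CPM, for counting error only. All 21 tested members passed the filter in at least 5 libraries. Slc25a20 passed in 5 control libraries and 1 cKO library, and Slc25a25 in 3 control and 5 cKO libraries, whereas 16 members passed in all 10.

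Genes that work with the carriers were counted from lists alongside. In the malate-aspartate shuttle, all 4 enzymes fell: Got1 (log2 fold change -1.97, SE 0.24, edgeR adjusted p = 2.07e-06), Mdh2 (-1.46, SE 0.16), Mdh1 (-0.79, SE 0.19) and Got2 (-0.75, SE 0.17). Of all tested genes, 24.1% were lower. Of the shuttle's carriers, the oxoglutarate carrier Slc25a11 was also called lower. The aspartate-glutamate carrier Slc25a12 was not (log2 fold change -0.41, adjusted p = 0.145 in edgeR), and Slc25a13 was not tested. For Got1 the groups were at 212 ± 53.1 and 51.0 ± 22.1 CPM (SD, n = 5), without overlap. Scaled to the MuSC markers, Got1 and Mdh2 stayed called, and Got2 (adjusted p = 0.108) and Mdh1 (adjusted p = 0.0963) did not in edgeR. With the leukocyte covariate none of the 4 was called in edgeR, at log2 fold changes of -1.96 for Got1 (adjusted p = 0.135), -1.45 for Mdh2 (0.0765), -0.72 for Got2 (0.424) and -0.26 for Mdh1 (0.844).

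In the TIM22 pathway that inserts carriers, 2 of 8 tested genes fell and none rose, a share (25%) near the background of 24.1%. They were Timm22, the channel-forming subunit, at 53.9 ± 9.80 and 25.1 ± 5.95 CPM (log2 fold change -1.07, SE 0.23) and Timm10, a chaperone of the intermembrane space, at 115 ± 12.7 and 58.4 ± 7.87 CPM (log2 fold change -0.94, SE 0.16; SD, n = 5). Timm9, the partner of Timm10, had a log2 fold change of -0.33 (SE 0.20) and was not called.

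Carrier family genes with other symbols split. Mtch2, an outer membrane insertase derived from the carrier fold, fell from 206 ± 12.9 to 108 ± 37.6 CPM (SD, n = 5; log2 fold change -0.86, SE 0.18, edgeR adjusted p = 5.86e-04). Its relative Mtch1 rose from 39.8 ± 5.32 to 95.2 ± 30.7 CPM (SD, n = 5; log2 fold change 1.18, SE 0.20, adjusted p = 6.07e-05), without overlap. Ucp2, an uncoupling protein homologue that is abundant in immune cells, rose (log2 fold change 0.90, SE 0.29, adjusted p = 0.0144), with the leukocyte markers higher in the same libraries. Per 3000 sorted cells, Mtch1 (-0.02) and Ucp2 (-0.25) were below 0 and not called. With the leukocyte covariate none of the 3 was called in edgeR. Their values were -0.22 for Mtch2 (adjusted p = 0.852), 0.81 for Mtch1 (0.421) and -0.55 for Ucp2 (0.755). That covariate does not overlap between the genotypes, and the part of leukocytes in these values was not tested.

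Of the other mitochondrial transport genes, 4 of 13 tested fell and 1 rose, where 24.1% of all tested genes were lower and 24.6% higher. Scaled to the MuSC markers 1 was lower and 4 were higher, and per 3000 sorted cells 9 were lower and 0 higher. Among the porins of the outer membrane, Vdac2 (log2 fold change -1.09, SE 0.15) and Vdac1 (-0.69, SE 0.15) fell, whereas Vdac3 had 0.00 (SE 0.16) and was not called. Mcu, the pore of the Ca2+ uniporter, fell (-0.92, SE 0.26), and Slc8b1, the mitochondrial Na+/Ca2+ exchanger, rose from 9.98 ± 4.10 to 35.9 ± 12.0 CPM (SD, n = 5; log2 fold change 1.71, SE 0.32, edgeR adjusted p = 1.72e-04). The Slc8b1 call was lost in edgeR per 3000 sorted cells (0.53, adjusted p = 0.242) and with the leukocyte covariate (1.15, adjusted p = 0.483). Mrs2, the Mg2+ channel of the inner membrane, had a log2 fold change of -0.14 (SE 0.29) and was not called (adjusted p = 0.760). Over all 28 tested genes of these lists, 11 were lower and 3 higher, with a median log2 fold change of -0.34 against -0.01 over all tested genes. Scaled to the MuSC markers, 6 were lower and 6 higher, where 11.3% of all genes were lower and 36.1% higher. Per 3000 sorted cells 22 were lower and 0 higher (66.6% and 4.90% of all genes). With the leukocyte covariate none was called (1.55% and 4.64% of all genes).

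**Figure D4:**
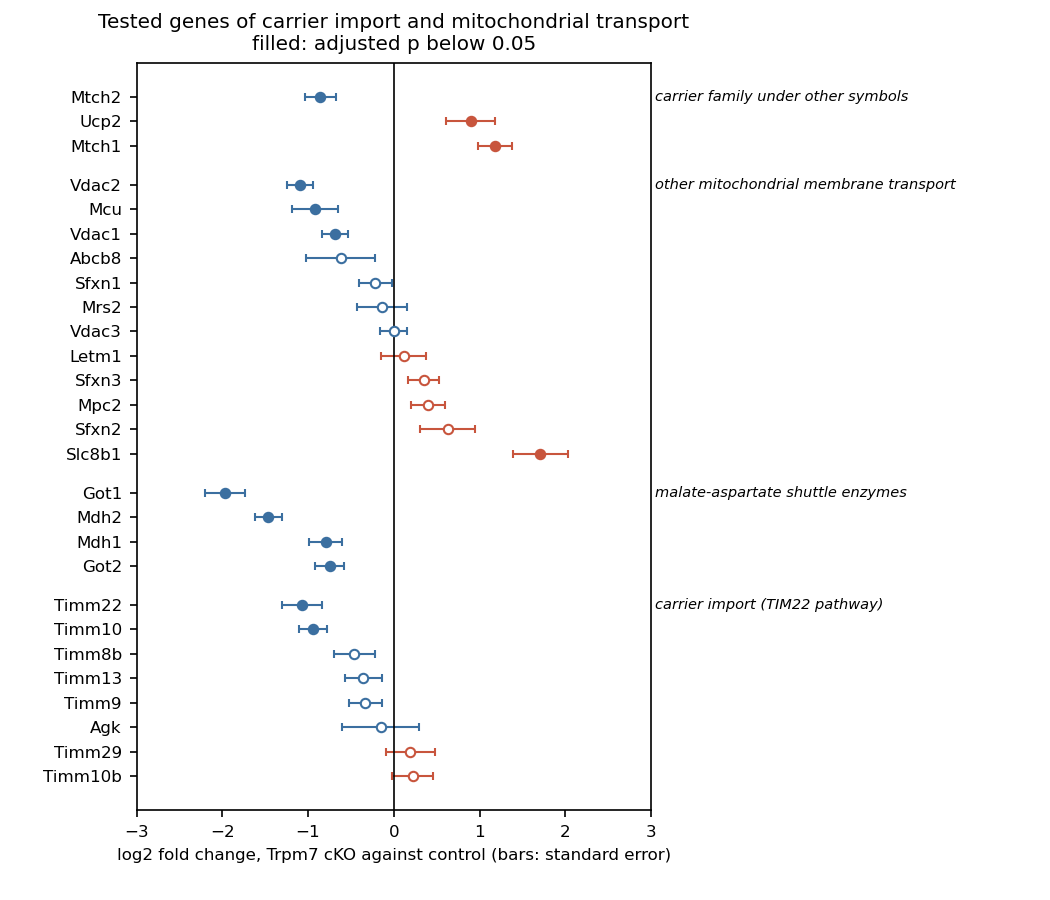
Log2 fold change (Trpm7 cKO against control, 5 libraries each) with standard error of 27 of the 28 tested genes of carrier import, related carriers, other mitochondrial transport and the malate-aspartate shuttle. Filled points have an edgeR adjusted p below 0.05. All 4 shuttle enzymes are filled and below 0, and Slc8b1 (1.71), Mtch1 (1.18) and Ucp2 (0.90) are filled and above 0. Per 3000 sorted cells the calls of Slc8b1, Mtch1 and Ucp2 are lost, with Slc8b1 at 0.53 and the last 2 below 0.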

How the data were processed

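MuSCs were profiled by CEL-Seq2 in 5 control and 5 Trpm7 cKO libraries, grouped by their labels. Per the methods and labels, the authors extracted UMIs with UMI-tools 1.1.4, trimmed reads with Trim Galore 0.6.10, aligned them to GRCm38 with HISAT2 2.2.1, assigned them with featureCounts 2.0.6, removed UMI duplicates and deposited whole-number counts per gene without normalization. The authors' own test was DESeq2 1.30.1. The gene annotation release used and whether counting used strand are not given in the sources used here, so reads of a gene and an antisense partner cannot be told apart.

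The 24620 entries were reduced to 24608 symbols by keeping the entry with the larger total for 12 repeated symbols. Genes were kept by filterByExpr (minimum count 10, minimum total 15) and fitted over all 10 libraries with edgeR 4.0.16 in R 4.3.3 (TMM, robust quasi-likelihood, genotype as the only term, Benjamini-Hochberg over 7753 genes). CPM refer to the TMM-scaled total of the tested genes. Pair ratios used counts plus 0.5 and an exact permutation test over 252 divisions, two-sided. No source says that libraries came from separate animals, so p-values measure the spread between these libraries, and libraries of the same genotype all differed from each other beyond counting noise. Positions came from the GENCODE annotation of GRCm38. Sequence shared with other genes was counted as matches of 31 bases in the last 500 transcript bases.

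The members and all gene lists were chosen with earlier results of these data known. Values per library are given for members called without overlap beyond a log2 fold change of 1, for the member with the highest control CPM of each substrate group and for the ATP-Mg/phosphate carriers, and the others are given by range and count. Slc25a13 and Slc25a10 are given in every library because of their values. Alternatives were RLE factors, total counts, scaling to MuSC markers, counts per 3000 sorted cells, DESeq2 1.42.0, limma-voom (limma 3.58.1), other filters, thinning to the smallest library, the replicate number as a block, a leukocyte covariate, summing cKO replicates 4 and 5, and leaving out libraries. Leaving out the 2 smallest cKO libraries together, and the other scalings of genes that are no members, were chosen after seeing the data. The single values of 2 genes that enter the counts are not reported here.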

Additional observations from a re-analysis of the deposited data

Results flagged for a closer look

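Each group of 5 libraries was screened for 1 library far from the other 4 (a gap of over 0.71 of the whole range), in 54 groups of values of the members and pair ratios. Chance flags about 1 in 20 groups, and 5 were found. In cKO replicate 4, Slc25a39 had 298 CPM against 177 to 207 CPM in the other cKO libraries, Slc25a37 had 54.7 CPM against 27.6 to 33.1 CPM, Slc25a20 had 36.5 CPM against 11.0 to 12.9 CPM and Slc25a13 had 8.28 CPM against 0 in each of the others. For Slc25a13, with the others at 0, any count in this library would have been flagged. In cKO replicate 1, Slc25a36 had 94.2 CPM against 60.7 to 69.4 CPM. The first 4 values are from 1 library, which held 581121 counts, the most of the cKO libraries, and had the highest leukocyte and lowest MuSC marker levels of all libraries. Whether these values are connected was not tested.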

How the results depend on the processing

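Slc25a24 and Slc25a39 were called lower under every alternative. The count of members called lower (11) was 5 with scaling to MuSC markers, 19 per 3000 sorted cells, 6 of 10 tested after thinning and 3 with the leukocyte covariate, and 9 to 13 with 1 library left out. In the same order, 11.3%, 66.6%, 22.8%, 1.55% and 20.5% to 23.6% of all tested genes were lower. The count called higher (1) was 0 per 3000 cells and after thinning, where Slc25a25 was not tested. Members past a log2 fold change of -1.5 (0) were 13 per 3000 cells, 5 with no filter, 2 with at least 10 counts in every library of 1 genotype, 3 with the covariate, 2 with cKO replicates 4 and 5 summed, 2 without the 2 smallest cKO libraries (added after the data were seen) and 0 to 4 with 1 library left out, 4 being without cKO replicate 4. The 2 with at least 10 counts were Slc25a13 (-2.635) and Slc25a10 (-1.766), which entered through their control counts alone. That filter favours a fall, so these 2 are no support for one. The share of all genes past 1.5 was counted for the main setting alone (3.53% lower, 8.49% higher). Members past 1.5 (1) were 0 per 3000 cells, under limma-voom, with no filter, after thinning and without the 2 smallest cKO libraries. The median was -0.27, -1.69, -0.91 and -0.86 under MuSC scaling, per 3000 cells, thinning and the covariate.

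The replicate numbers do not pair the libraries (correlations of same-numbered deviations from -0.118 to 0.181, and 1 of 5 controls closest to its own number). With a replicate block, 10 members were lower and 1 higher, 1 past -1.5, where 22.7% of all tested genes were lower and 23.4% higher. The ratios of Slc25a37 to Slc25a28 (-1.17) and Slc25a24 to Slc25a25 (-3.13) then had p = 0.0625 by exact sign flips, the smallest possible.

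Values that changed sign were not called, except Slc25a44 per 3000 cells (-1.07, adjusted p = 0.0197 in edgeR) and, where a main call was lost, Slc25a46 with the covariate (0.55). The others were Slc25a20 (0.23 MuSC scaling, 0.056 without the 2 smallest cKO libraries), Slc25a28 (-0.83 per 3000 cells, -0.27 covariate), Slc25a16 (0.067 total counts, 0.30 MuSC scaling, 0.030 limma-voom, 0.038 at least 10 counts, 0.0090 replicate block, 0.077 covariate), Slc25a22 (0.13 MuSC scaling), Slc25a36 (0.036 total counts, 0.26 MuSC scaling, 0.0076 at least 10 counts, 0.39 thinning, 0.22 covariate) and Slc25a44 (-0.13 no filter, -0.39 covariate). With 1 library left out, ranges crossed 0 for the ratio of Slc25a4 to Slc25a5 (-0.069 to 0.13), Slc25a20 (-0.73 to 0.0066), Slc25a16 (-0.16 to 0.082) and Slc25a44 (-0.017 to 0.11). The causes were not tested. cKO libraries of 205986 to 581121 counts limit members below about 16.6 CPM.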
